A study of Mus musculus with 8 samples.

Results

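The collagen genes of the mouse thymus were compared between mice flown in space and mice kept on the ground. Members were all genes whose symbol in the platform annotation is Col followed by a digit. They numbered 44 of the 19938 genes that had a probe set of their own, and all 44 encode collagen chains. They were measured by 46 probe sets, sets of short probes read as a single value, and where a gene had more than 1, the brightest on average over the 8 arrays stood for it. By the structure their proteins form, 11 genes were fibrillar, 8 belonged to basement membranes and 25 to other kinds of collagen. The spaceflight group was 4 C57BL/6NTac mice, 8 weeks of age, flown for 13 days on space shuttle mission STS-118. The ground-control group was 4 mice of the same strain, matched to them in age and sex, that lived on the ground in enclosure modules of a similar kind. The labels name no engineered allele and no drug. Both groups were sampled after the mission ended, so flight, launch, landing and the time to dissection cannot be told apart. Each array held RNA of the thymus lobes of 1 mouse.

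Collagens are triple-helical proteins of the extracellular matrix, built from chains that are hydroxylated and folded in the endoplasmic reticulum before they are secreted. Fibrillar collagens assemble into the cables that carry tension, type IV collagens form the sheet of every basement membrane, and the remaining types decorate fibrils, anchor epithelia or span the cell membrane. In the thymus, fibroblasts of the capsule and septa and the cells around vessels make most of this matrix, while thymocytes, the great majority of cells, make little of it. A bulk measurement of thymus lobes therefore reads a minority of cells, and fewer such cells cannot be told apart from less RNA per cell.

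The expression values are log2 values, so that a difference of 1 is a doubling, and every difference is spaceflight minus ground control. Because probe sets bind with different strength, the signals of different genes do not rank their transcripts. Thymocyte markers, among them Rag1, Dntt and Cd8a, were measured at a mean log2 expression of 10.13 to 10.39 in spaceflight thymi and 10.37 to 10.46 in ground-control thymi. The spread of values differed between arrays. The interquartile range over all tested probe sets was 2.43 in spaceflight replicates 1 and 3, against 2.68 to 2.95 in the other 6 arrays. The same pair correlated with the others at 0.954 to 0.984, against 0.986 to 0.994 among those 6. Many of the counts and medians below are therefore also given without both arrays. Ground-control replicate 3 stood out for airway markers. The lung surfactant transcript Sftpc had a log2 expression of 5.38, 5.07, 5.77 and 8.76 in spaceflight thymi, against 5.88, 5.18, 11.73 and 5.32 in ground-control thymi.

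The genes lie on 15 chromosomes, and 8 pairs of collagen genes are direct neighbours, which involves 15 genes. The best known pair is Col4a1 and Col4a2, the chains of the commonest type IV collagen, which lie on opposite strands. Their annotated starts are 21 bases apart, each inside the other gene, so the annotated transcripts overlap at their 5′ ends. Their start regions are shown because both genes had their highest value on the same array, ground-control replicate 3. This is not particular to the pair, since that array was the highest for 13 of the 44 collagens and 19.1% of all genes. Also shown are those of Col15a1, the only collagen whose groups did not overlap, and of the fibrillar genes Col3a1 and Col1a2. Each sequence runs 5′ to 3′ on the gene's own strand from 250 bases before to 50 bases after the annotated start, in RefSeq's mouse annotation of build GRCm38.p6. Capitals mark the CCAAT box (CCAAT or ATTGG), the GC box (GGGCGG or CCGCCC) and the TATA box (TATAAA or TTTATA), each searched on both strands.
Col4a1: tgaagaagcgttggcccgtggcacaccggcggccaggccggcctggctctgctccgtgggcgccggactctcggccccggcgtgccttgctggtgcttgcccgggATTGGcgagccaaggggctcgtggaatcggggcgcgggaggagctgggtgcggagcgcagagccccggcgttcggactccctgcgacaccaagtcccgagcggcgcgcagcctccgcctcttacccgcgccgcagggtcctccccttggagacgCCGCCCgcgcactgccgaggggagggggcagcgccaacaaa
Col4a2: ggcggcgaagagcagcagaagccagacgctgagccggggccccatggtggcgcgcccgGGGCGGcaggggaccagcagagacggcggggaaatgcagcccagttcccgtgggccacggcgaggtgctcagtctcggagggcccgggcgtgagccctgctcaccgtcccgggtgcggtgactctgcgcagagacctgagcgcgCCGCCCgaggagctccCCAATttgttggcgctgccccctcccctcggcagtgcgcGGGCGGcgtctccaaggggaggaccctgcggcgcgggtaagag
Col15a1: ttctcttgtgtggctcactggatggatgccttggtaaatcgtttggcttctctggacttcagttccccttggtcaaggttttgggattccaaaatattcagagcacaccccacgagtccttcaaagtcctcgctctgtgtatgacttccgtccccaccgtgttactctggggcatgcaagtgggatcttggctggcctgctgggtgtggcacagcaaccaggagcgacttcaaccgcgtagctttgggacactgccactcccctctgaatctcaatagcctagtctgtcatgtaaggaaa
Col3a1: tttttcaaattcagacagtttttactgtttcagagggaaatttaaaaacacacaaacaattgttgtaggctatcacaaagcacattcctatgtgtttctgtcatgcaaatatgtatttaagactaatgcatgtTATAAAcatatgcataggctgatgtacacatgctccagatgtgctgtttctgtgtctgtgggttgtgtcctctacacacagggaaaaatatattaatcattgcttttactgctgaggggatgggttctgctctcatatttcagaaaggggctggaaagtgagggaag
Col1a2: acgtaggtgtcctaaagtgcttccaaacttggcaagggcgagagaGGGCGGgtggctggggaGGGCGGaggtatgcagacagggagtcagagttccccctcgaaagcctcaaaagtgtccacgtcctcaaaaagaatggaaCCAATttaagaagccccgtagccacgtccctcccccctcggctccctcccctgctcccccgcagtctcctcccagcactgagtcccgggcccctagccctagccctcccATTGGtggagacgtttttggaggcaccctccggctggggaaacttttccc

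The windows lie at chr8:11312777-11313076 (minus strand) for Col4a1, chr8:11312555-11312854 (plus strand) for Col4a2, chr4:47207762-47208061 (plus strand) for Col15a1, chr1:45311288-45311587 (plus strand) for Col3a1 and chr6:4505368-4505667 (plus strand) for Col1a2. The windows of Col4a1 and Col4a2 overlap over 78 bases, so a motif there is printed in both. The Col4a1 window holds 1 CCAAT box and 1 GC box, and that of Col4a2 holds 1 CCAAT box and 3 GC boxes. Col1a2 has 2 of each, Col3a1 has 1 TATA box, and the Col15a1 window has none of these letters. Over the 38 collagen windows, which belong to 35 genes, 23 (60.5%) hold a GC box, against 35.7% of all 32851 windows. A CCAAT box is in 13 (34.2%) of the collagen windows and in 37.4% of all windows, and a TATA box in 5 (13.2%) and in 13.6%. A match of letters is a description and does not show that a factor binds there.

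No collagen gene passed the test. Of the 44 genes, 0 had an adjusted p under 0.05 in limma, a linear model fitted to all 28943 probe sets with Benjamini-Hochberg adjustment over all of them, beside 0.0502% of all genes. By direction, 0 were lower and 0 higher, beside 0.0401% and 0.01% of all genes. At an unadjusted p under 0.05, 2 collagens were lower, where the share of all genes was 7%, and 0 were higher, where it was 3.05%. The values of the groups did not overlap in 1 collagen that was lower, Col15a1, and in 0 that were higher, beside 4.28% and 1.73% of all genes. By their means, 15 of the 44 genes were lower in spaceflight thymi, 34.1%, where the share was 53.5% of all genes, and 29 were higher, where it was 46.5%. The median difference of the collagens was 0.06, beside -0.02 for all genes. The direction of these counts rests on spaceflight replicates 1 and 3. Without both arrays, 32 of the 44 were lower, the median difference was -0.05, and 0 had an unadjusted p under 0.05. In that fit 53.4% of all genes were lower, and 3.68% were lower and 3.27% higher at an unadjusted p under 0.05. Centring each array on its 75th percentile raised the difference of every gene by the same amount. With that centring 10 of the 44 were lower, and the share of all genes is not given here.

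**Figure D1:**
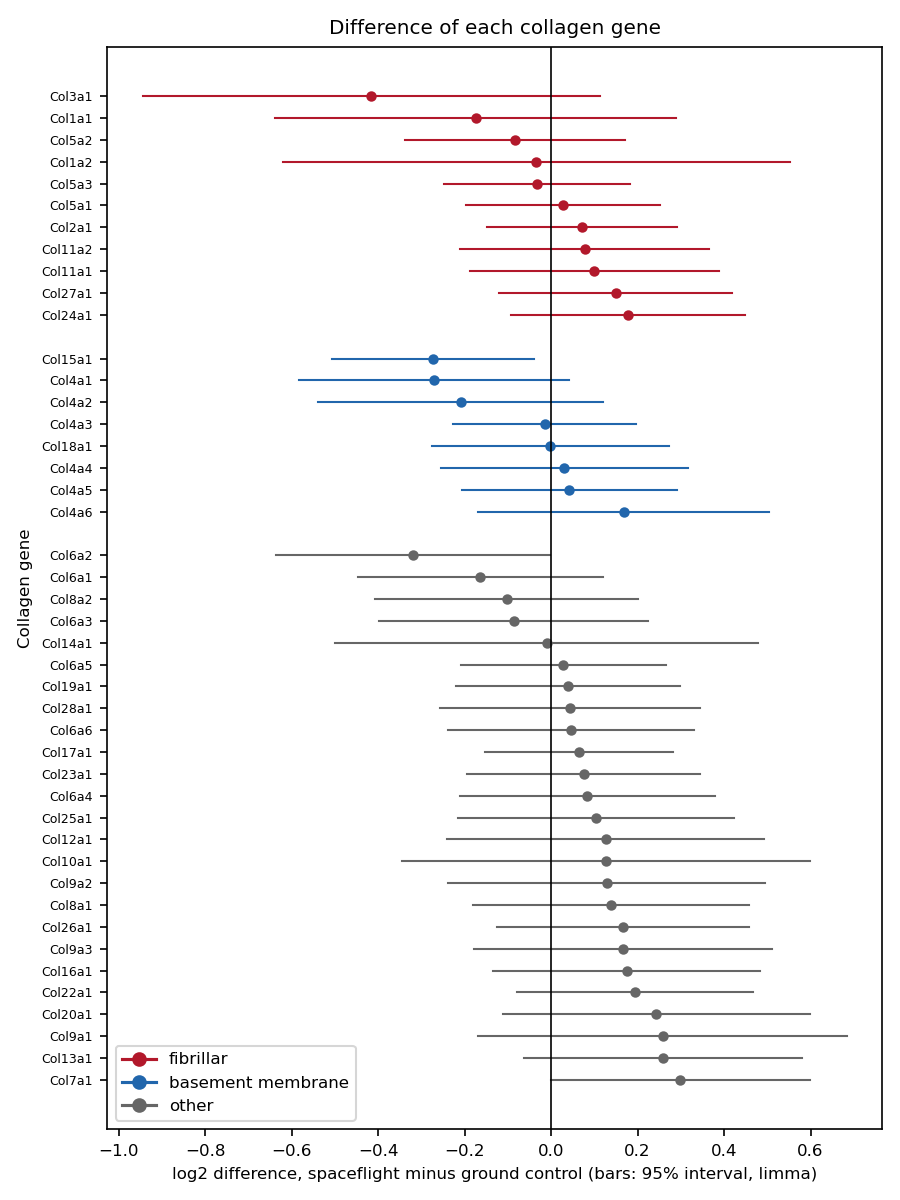
Each point is the log2 difference, spaceflight minus ground control, of 1 collagen gene (vertical axis, grouped by class), and each bar is its 95% interval from limma with 4 mice per group. The interval lies below 0 for Col15a1 and Col6a2 and spans 0 for the other 42 genes.

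The interval of each gene shows what 4 mice per group could resolve. Over the 44 genes, the 95% intervals reached down to -0.94, for Col3a1, and up to 0.68, for Col9a1, a chain of cartilage type IX collagen. A p above the threshold does not show that a gene was the same in both groups, and changes inside these intervals were not resolved with this number of mice.

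Among the 11 fibrillar genes, 5 had a lower and 6 a higher mean in spaceflight thymi, with differences from -0.42 to 0.18 and a median of 0.03. With spaceflight replicates 1 and 3 left out, 9 of the 11 were lower and the median was -0.03. Col3a1, the chain of type III collagen found in the reticular fibres of lymphoid organs, had the largest difference of the class. Its log2 expression (probe set 10346015) was 6.90, 7.74, 7.30 and 7.73 in spaceflight replicates 1 to 4, against 7.67, 7.57, 8.47 and 7.63 in ground-control replicates 1 to 4. Spaceflight replicates 1 and 3 were the lowest arrays and ground-control replicate 3 the highest, while the other 5 lay close together across both groups. The means were 7.42 ± 0.40 in spaceflight thymi and 7.83 ± 0.42 in ground-control thymi (SD, n = 4 each). The difference was -0.42 ± 0.24 (SE), and limma gave an adjusted p of 0.523. Without spaceflight replicates 1 and 3 it was -0.10, and without these and ground-control replicate 3 it was 0.11.

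Col1a1 and Col1a2 encode the chains of type I collagen, the main protein of fibrous tissue. Col1a1 (probe set 10380419) read 7.91, 8.26, 7.93 and 8.09 in spaceflight thymi, against 8.02, 8.05, 8.92 and 7.89 in ground-control thymi. Ground-control replicate 3 was well above the other 7 arrays, and those overlapped. The difference was -0.17 ± 0.21 (SE, limma adjusted p = 0.742), and 0.06 without ground-control replicate 3. Col1a2 (probe set 10536220) read 7.42, 8.38, 7.95 and 7.95 in spaceflight thymi, against 7.70, 7.93, 8.70 and 7.51 in ground-control thymi. The lowest array was spaceflight replicate 1, the highest was again ground-control replicate 3, and the groups covered much the same range. Its difference was -0.03 ± 0.26 (SE, limma adjusted p = 0.965), and 0.21 without ground-control replicate 3. Both genes were read from the same RNA of each mouse, so their values are not independent.

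Col2a1, the fibrillar collagen of cartilage, had a narrower spread. Its probe set, 10432045, read 6.84, 6.60, 6.82 and 6.72 in spaceflight thymi and 6.63, 6.76, 6.70 and 6.61 in ground-control thymi. Spaceflight replicates 1 and 3 were the highest arrays and spaceflight replicate 2 the lowest, so the ground-control values lay inside the spaceflight range. The difference was 0.07 ± 0.10 (SE, limma adjusted p = 0.781), and -0.01 without spaceflight replicates 1 and 3. Col11a1 and Col11a2, which join Col2a1 in cartilage fibrils, differed by 0.10 and 0.08. The minor chains Col5a1, Col5a2 and Col5a3, which start and limit fibrils of type I collagen, differed by 0.03, -0.08 and -0.03. Col24a1 and Col27a1 had the largest positive differences of the class, at 0.18 and 0.15. None of these 7 genes had an unadjusted p under 0.05.

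**Figure D2:**
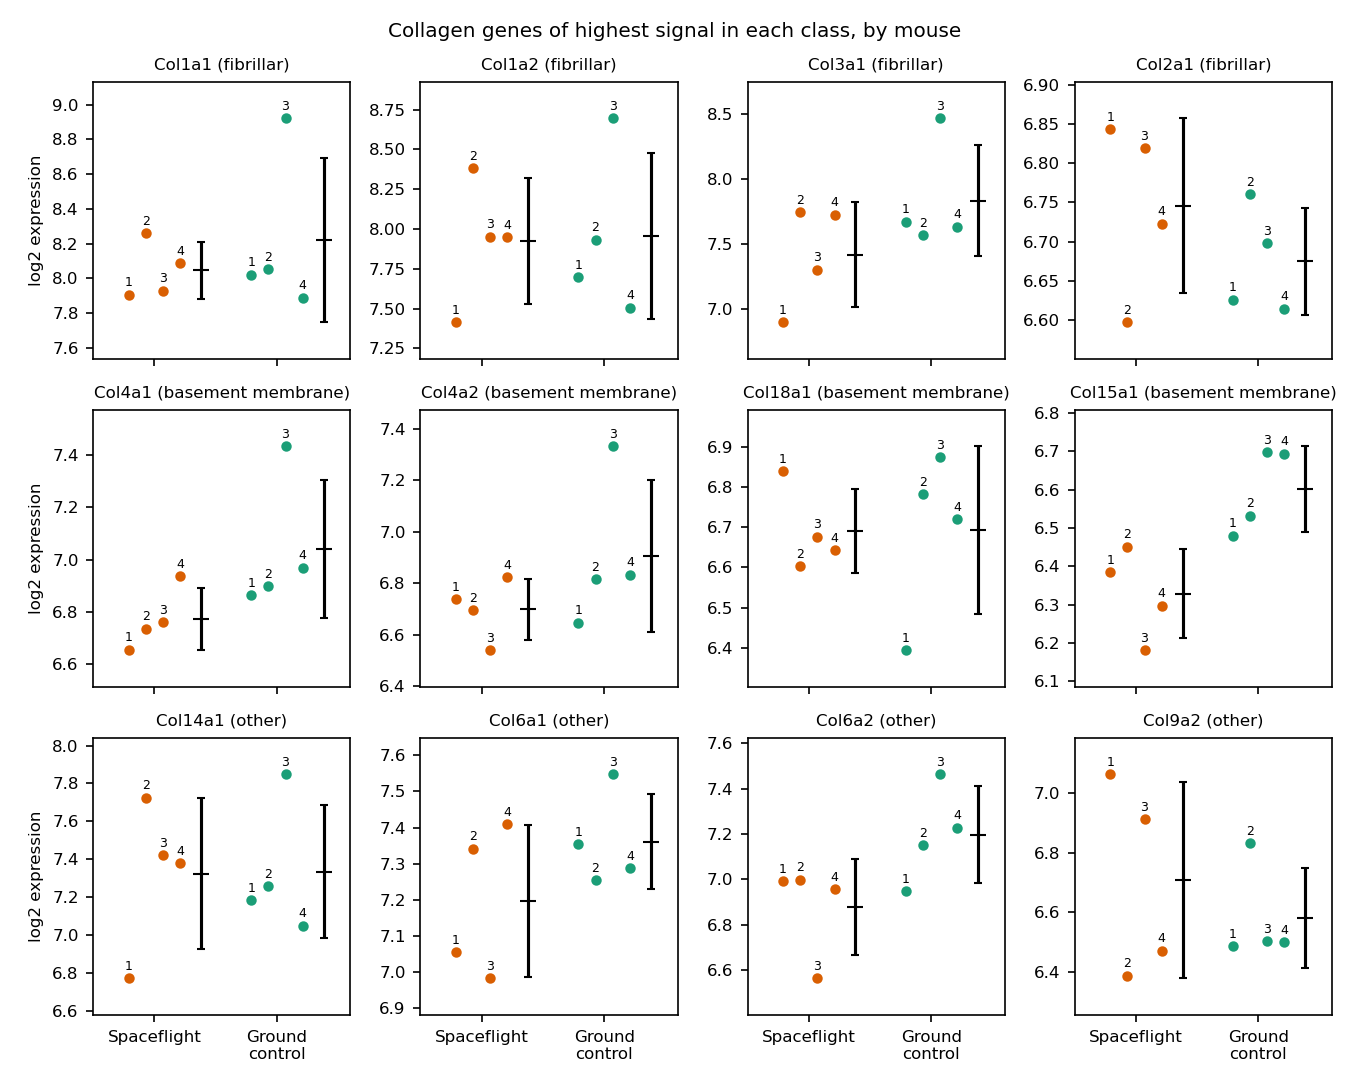
Log2 expression (vertical axis, a separate scale for each gene) of the 4 collagens of highest mean signal in each class, with spaceflight mice left and ground-control mice right, numbered by replicate, and the mean ± SD of 4 mice beside each group. Ground-control replicate 3 is the highest point for 10 of the 12 genes, all but Col2a1 and Col9a2, and only Col15a1 has groups that do not overlap.

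The 8 basement membrane genes had 5 lower and 3 higher means, with differences from -0.27 to 0.17 and a median of -0.01. Col15a1 had the smallest unadjusted p of all collagens. It encodes a multiplexin, a collagen with an interrupted helix that ties basement membranes to the tissue around them, found around capillaries, muscle and fat cells. Its log2 expression (probe set 10504775) was 6.38, 6.45, 6.18 and 6.30 in spaceflight thymi, against 6.48, 6.53, 6.70 and 6.69 in ground-control thymi. All 4 spaceflight arrays lay below all 4 ground-control arrays, by a narrow gap between spaceflight replicate 2 and ground-control replicate 1. The means were 6.33 ± 0.12 in spaceflight thymi and 6.60 ± 0.11 in ground-control thymi (SD, n = 4 each), a ratio of 0.828. The difference was -0.27 ± 0.11 (SE), with an unadjusted p of 0.0265 and an adjusted p of 0.462 in limma. It stayed negative under each alternative run, at -0.31 to -0.22 with 1 array left out at a time. The unadjusted p depended on the arrays and the fit, from 0.0194 to 0.15 over the alternatives. It was above 0.05 with the replicate number as a block, with 75th-percentile centring, without spaceflight replicate 3 or 4, without ground-control replicate 3 or 4, and in both fits that left out spaceflight replicates 1 and 3 together. Marker genes of fat cells, which can border the thymus, had a median difference of -0.62, with 4 of 7 measured genes lower at an unadjusted p under 0.05, beside 7% of all genes and 11.8% of those above the median signal, where 6 of the 7 lie. None was at 0, but no tested probe set was, since the lowest value on any array was 1.72. The summed signal of the fat cell markers on the linear scale was 2212 to 4288 in spaceflight thymi and 3976 to 5259 in ground-control thymi. Without spaceflight replicates 1 and 3 the fat cell median was -0.42, with 3 lower at an unadjusted p under 0.05, beside 3.68% of all genes and 4.52% of those above the median signal. Endothelial and skeletal muscle markers had medians of -0.15 and -0.46 with all arrays. In each of these lists 0 of 8 were lower at an unadjusted p under 0.05. The part of these cells in the Col15a1 values was not tested.

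Col4a1 and Col4a2, whose shared start region is printed above, are chains of the same trimer. Col4a1 (probe set 10576973) read 6.65, 6.73, 6.76 and 6.94 in spaceflight thymi, against 6.86, 6.90, 7.44 and 6.97 in ground-control thymi. Col4a2 (probe set 10570068) read 6.74, 6.69, 6.54 and 6.82 in spaceflight thymi, against 6.65, 6.82, 7.33 and 6.83 in ground-control thymi. For both genes ground-control replicate 3 stood above every other array, and the remaining arrays overlapped. The differences were -0.27 ± 0.14 for Col4a1 and -0.21 ± 0.15 for Col4a2 (SE), with limma adjusted p-values of 0.509 and 0.584. Without ground-control replicate 3 they were -0.14 and -0.07. Endothelial markers were also highest in that array, with a list mean of 7.56 there. Their list means ran from 6.42 to 6.93 in spaceflight thymi and from 6.65 to 7.56 in ground-control thymi.

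The 4 other type IV chains, which form the networks of kidney filters and some epithelia, lay closer to 0. Col4a3, Col4a4 and Col4a5 differed by -0.01, 0.03 and 0.04, and Col4a6 by 0.17. Col18a1, the second multiplexin and the source of the fragment endostatin, read 6.84, 6.60, 6.68 and 6.64 in spaceflight thymi (probe set 10370259), against 6.39, 6.78, 6.87 and 6.72 in ground-control thymi. Ground-control replicate 1 was its lowest array and ground-control replicate 3 its highest, so the spaceflight values lay inside the ground-control range. Its difference was -0.00199 ± 0.12 (SE, limma adjusted p = 0.997), and its sign changed in 6 of the 8 fits that left out 1 array. Without spaceflight replicates 1 and 3, all 8 basement membrane genes had lower means, with a median of -0.13.

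Of the 25 other collagens, 5 had lower and 20 had higher means in spaceflight thymi, with differences from -0.32 to 0.30 and a median of 0.10. In the fit that left out spaceflight replicates 1 and 3, 15 of the 25 were lower and the median was -0.03. Type VI collagen, whose chains Col6a1, Col6a2 and Col6a3 assemble into beaded filaments around cells, held the lowest value of the class. Col6a2 (probe set 10370180) read 6.99, 6.998, 6.56 and 6.96 in spaceflight thymi, against 6.95, 7.15, 7.46 and 7.23 in ground-control thymi. Spaceflight replicate 3 was far below the rest, and the groups met where ground-control replicate 1 lay under spaceflight replicates 1, 2 and 4. The difference was -0.32 ± 0.14 (SE), with an unadjusted p of 0.0482 and an adjusted p of 0.487 in limma. It was -0.22 without spaceflight replicate 3.

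Col6a1, its neighbour on chromosome 10, read 7.05, 7.34, 6.98 and 7.41 in spaceflight thymi (probe set 10370210), against 7.35, 7.25, 7.55 and 7.29 in ground-control thymi. Spaceflight replicates 1 and 3 were the lowest arrays, and the other 6 overlapped. The difference was -0.16 ± 0.13 (SE, limma adjusted p = 0.610), and 0.01 without those 2 arrays. Col6a3 differed by -0.09. The more restricted chains Col6a4, Col6a5 and Col6a6 differed by 0.08, 0.03 and 0.05. The second probe sets of Col6a5 and Col6a6 gave -0.04 and 0.15, so the pair for Col6a5 had opposite signs, each within its interval around 0.

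The 9 fibril-associated genes, whose proteins sit on fibrils with interrupted helices, had 1 lower and 8 higher means and a median of 0.17. This direction rests on spaceflight replicates 1 and 3, and without them 6 of the 9 were lower and the median was -0.01. With all arrays, Col14a1, which binds the surface of type I fibrils, was the lower gene. It read 6.77, 7.73, 7.42 and 7.38 in spaceflight thymi (probe set 10424140), against 7.18, 7.26, 7.85 and 7.05 in ground-control thymi. Spaceflight replicate 1 was lowest and ground-control replicate 3 highest, with the groups mixed between them. The difference was -0.01 ± 0.22 (SE, limma adjusted p = 0.989), and its sign depended on single arrays, at 0.17 without spaceflight replicate 1 and 0.16 without ground-control replicate 3.

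Col9a2, a chain of the type IX collagen of cartilage, showed the reverse arrangement of arrays. It read 7.06, 6.39, 6.91 and 6.47 in spaceflight thymi (probe set 10507742), against 6.49, 6.83, 6.50 and 6.50 in ground-control thymi. Spaceflight replicates 1 and 3 were the highest arrays and the other spaceflight mice the lowest, with ground-control replicate 2 near the top. The difference was 0.13 ± 0.17 (SE, limma adjusted p = 0.760), and -0.15 without spaceflight replicates 1 and 3. Col9a1 and Col9a3, the other chains of the same trimer, differed by 0.26 and 0.17. Col12a1, Col16a1, Col19a1, Col20a1 and Col22a1 differed by 0.13, 0.17, 0.04, 0.24 and 0.19.

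The largest positive difference of all collagens was that of Col7a1, which forms the anchoring fibrils under stratified epithelia. It is named here after its values were seen. It read 6.90, 6.46, 6.85 and 6.53 in spaceflight thymi, against 6.47, 6.56, 6.28 and 6.24 in ground-control thymi. Spaceflight replicates 1 and 3 were the highest arrays, and the other spaceflight mice overlapped the ground-control mice. The difference was 0.30 ± 0.13 (SE), with an unadjusted p of 0.0504 and an adjusted p of 0.490 in limma. It was 0.11 without spaceflight replicates 1 and 3. The 4 transmembrane collagens had higher means, by 0.26 for Col13a1, 0.07 for Col17a1 of the hemidesmosome, 0.08 for Col23a1 and 0.10 for Col25a1. Without the same 2 arrays, Col13a1 was at 0.03, Col25a1 at -0.09 and the median of the 4 at 0.02. Of the short-chain network collagens, Col8a1 and Col10a1, a marker of hypertrophic cartilage, differed by 0.14 and 0.13, and Col8a2 by -0.10. Col26a1 and Col28a1 differed by 0.17 and 0.04, and both means were lower without the same 2 arrays.

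The direction of the collagens differed with the signal of their probe sets. All genes were ranked by mean signal over the 8 arrays and split into 10 deciles, numbered by rising signal. The median difference of all genes ran from 0.11 in decile 2 to -0.14 in decile 8. This trend rests on spaceflight replicates 1 and 3. With all arrays the median was -0.12 over genes above the median signal and 0.07 over the others, and without both it was -0.01 and -0.02. The 8 collagens in deciles 7 to 9 were Col1a1, Col1a2, Col3a1, Col14a1, Col6a1, Col6a2, Col4a1 and Col4a2. All 8 had lower means, with a median of -0.19, beside -0.13 for the 5981 genes of these deciles, of which 4710 had lower means. In decile 6, 12 of 15 collagens had higher means, with a median of 0.08, beside -0.07 for its 1994 genes. Taken relative to the median of all genes in the same decile, the median difference was 0.10 for fibrillar, -0.05 for basement membrane and 0.13 for other collagens. Without spaceflight replicates 1 and 3, 5 of the 8 collagens in deciles 7 to 9 and 12 of the 15 in decile 6 had lower means, with medians of -0.07 and -0.03. These values describe the members and carry no test.

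**Figure D3:**
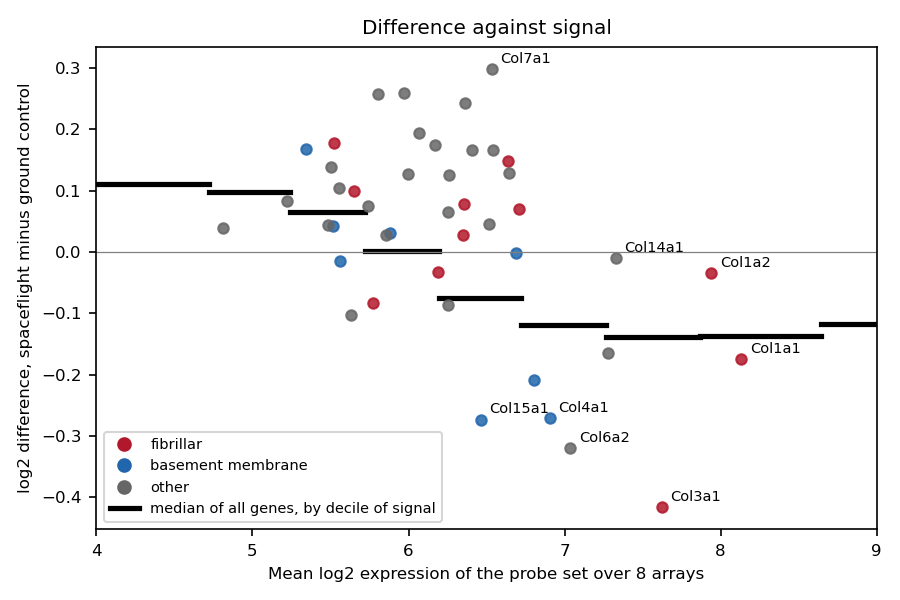
The log2 difference, spaceflight minus ground control, of each collagen gene (vertical axis) against its mean log2 expression over 8 arrays (horizontal axis), with points coloured by class and black bars for the median of all genes in each decile of signal. The bars fall to -0.14 in decile 8, the 8 collagens of highest signal lie below 0, and most collagens in decile 6 lie above the bar of that decile.

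The arrays that set these directions differed between collagens of high and lower signal. Ground-control replicate 3 was the highest array for 8 of the 8 collagens in deciles 7 to 9, and for 1693 (28.3%) of the 5981 genes there. Averaged over these 8 collagens, the deviation from the gene mean was -0.33 in spaceflight replicate 1, -0.20 in spaceflight replicate 3 and 0.58 in ground-control replicate 3. In decile 6, by contrast, spaceflight replicates 1 and 3 were the 2 highest arrays for 8 (53.3%) of 15 collagens, against 8.58% of the genes there. Over all collagens the same 2 arrays were the highest for 20 (45.5%) of 44, against 16.9% of all genes. Among the 21 collagens at or below the median signal it was 12 (57.1%), against 30.9% of such genes. With those 2 arrays and ground-control replicate 3 all left out, 30 of the 44 had lower means, the median difference was -0.04, and 3 genes had an unadjusted p under 0.05 and were higher, beside 3.88% of all genes. They were Col1a2 at 0.45, Col12a1 at 0.40 and Col14a1 at 0.39.

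**Figure D4:**
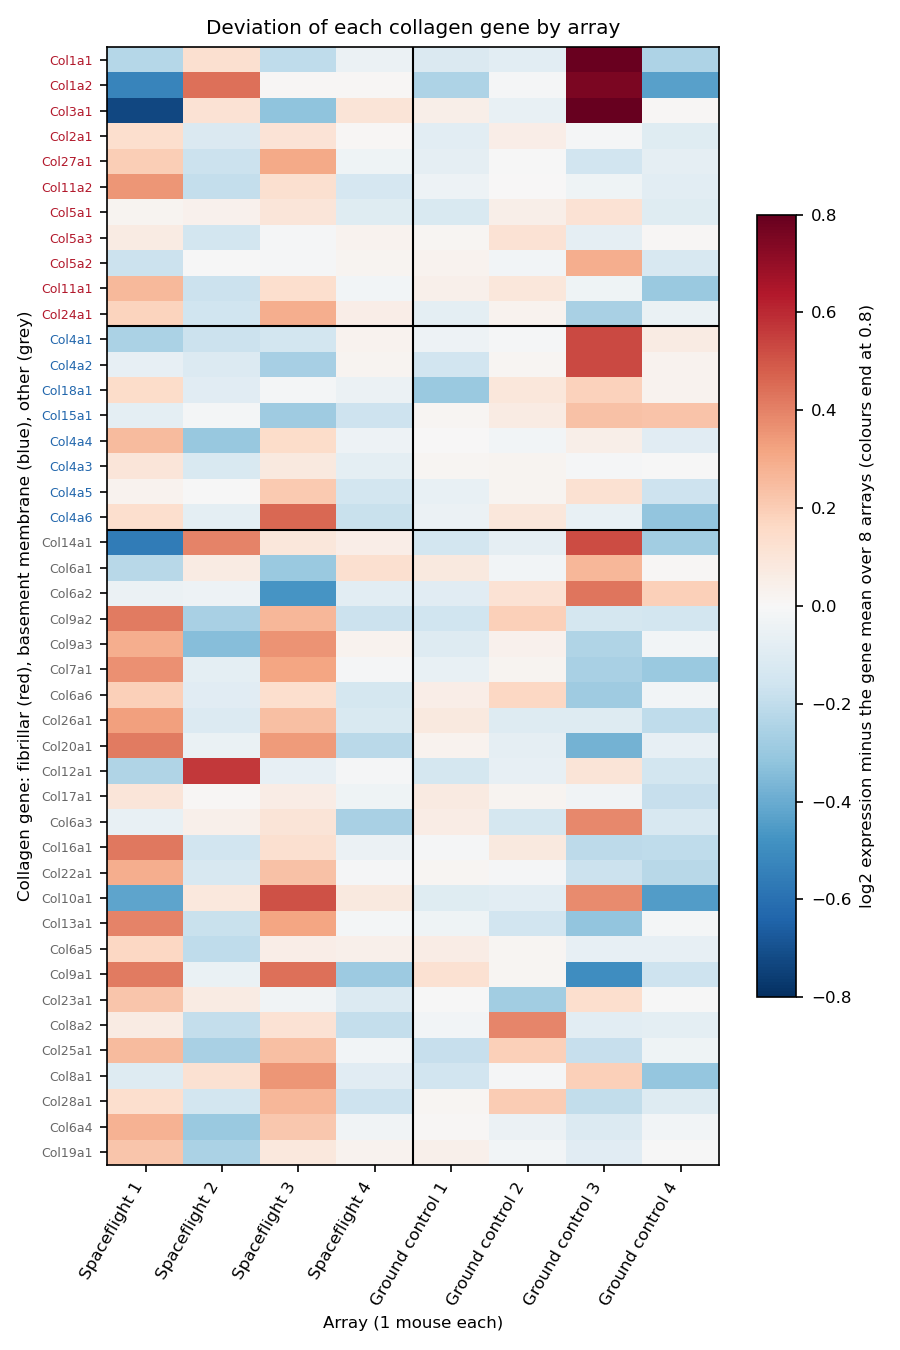
Colour gives the log2 expression of each collagen gene (rows, by class) on each array (columns, spaceflight left) minus that gene's mean over 8 arrays, red above and blue below, with colours ending at 0.8. Spaceflight replicates 1 and 3 are red for many collagens of lower signal, and ground-control replicate 3 is red for the 8 of highest signal.

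Most of the measured enzymes and chaperones that fold and modify collagen chains had lower means in spaceflight thymi. Of 21 genes listed for folding, modification and secretion, 20 were measured, 17 had lower means, and 0 had an adjusted p under 0.05. Lower means were found in 53.5% of all genes and in 75.9% of genes above the median signal, where 12 of the 20 lie. At an unadjusted p under 0.05, 4 were lower and 0 higher, beside 7% and 3.05% of all genes, and the median difference was -0.28. Without spaceflight replicates 1 and 3, 14 were lower, 3 of them at an unadjusted p under 0.05, and the median was -0.07. In that fit 53.4% of all genes were lower. At an unadjusted p under 0.05, 3.68% of all genes were lower, and 4.52% of those above the median signal. Serpinh1, the chaperone that binds the collagen triple helix in the endoplasmic reticulum, read 6.40, 6.06, 6.37 and 6.34 in spaceflight thymi, against 7.05, 7.26, 7.34 and 6.998 in ground-control thymi. Every spaceflight array lay well below every ground-control array. The difference was -0.87 ± 0.12 (SE, limma adjusted p = 0.0541), and -0.96 without spaceflight replicates 1 and 3 (limma adjusted p = 0.112). P4ha1 and P4ha2, catalytic subunits of the prolyl hydroxylases that stabilise the helix, differed by -0.93 and -0.30 (limma adjusted p = 0.177 and 0.445), also without overlap, and by -0.61 and -0.33 without those 2 arrays. Of the 20 measured genes, 3 were lower without overlap, beside 4.28% of all genes.

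The other lists of collagen partners held 0 genes with an adjusted p under 0.05 as well. Of 13 genes for procollagen processing and cross-linking, 11 were measured, 7 had lower means and the median was -0.05, or -0.04 without spaceflight replicates 1 and 3. Its genes of smallest p were the cross-linking oxidase Loxl1 at -0.36, the enhancer of procollagen cleavage Pcolce at -0.27 and the procollagen protease Adamts14 at 0.16. Of 14 fibril partners, 13 were measured, 8 had lower means and the median was -0.09. Leaving out spaceflight replicates 1 and 3, 3 were lower, 10 were higher and the median was 0.21, where 53.4% of all genes were lower. At an unadjusted p under 0.05 in that fit, 1 was lower and 4 were higher, beside 3.68% and 3.27% of all genes. Tnc, a matrix glycoprotein of remodelling tissue, averaged 7.67 ± 0.29 in spaceflight thymi and 8.48 ± 0.08 in ground-control thymi (SD, n = 4 each), without overlap and with a limma adjusted p of 0.116. Its difference was -0.81, and -0.59 without those 2 arrays. Of the 13 measured genes, 1 was lower without overlap, beside 4.28% of all genes. Prelp, a leucine-rich proteoglycan, and Thbs2, a thrombospondin, differed by -0.55 and 0.29.

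Of 17 basement membrane partners, 16 were measured, 11 had lower means and the median was -0.14, or -0.03 without spaceflight replicates 1 and 3. The laminin chain Lamc3 read 6.26, 5.88, 6.08 and 5.93 in spaceflight thymi, against 5.60, 5.70, 5.76 and 5.48 in ground-control thymi. All spaceflight arrays were above all ground-control arrays, with a difference of 0.40 ± 0.12 (SE, limma adjusted p = 0.396). Its highest arrays were spaceflight replicates 1 and 3. Of the 16 measured genes, 1 was higher without overlap, beside 1.73% of all genes. Lama4, a laminin chain of vessel walls, differed by -0.54, and Pxdn, the peroxidase that cross-links type IV collagen, by -0.47. For Lama4 and Pxdn, spaceflight replicate 1 was the lowest array, at 6.15 and 5.88, and ground-control replicate 3 the highest, at 7.78 and 7.39. All 13 genes for collagen degradation and its inhibitors were measured, 9 had lower means and the median was -0.05. Only 4 were lower without spaceflight replicates 1 and 3, and the median was then 0.10. The gelatinase Mmp9 differed by -0.63 without overlap (limma adjusted p = 0.354), and by -0.34 without those 2 arrays. Of the 13 genes, 1 was lower without overlap, beside 4.28% of all genes. Fap and Mmp3, a serine and a metalloprotease, differed by 0.28 and 0.16. Of 10 collagen receptors, 9 were measured, 7 had lower means and the median was -0.11, or -0.10 without spaceflight replicates 1 and 3. The integrin chains Itgb1 and Itga1 differed by -0.23 and -0.36, and the receptor kinase Ddr2 by -0.37.

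The list means of fibroblast, mural and endothelial markers were lowest in spaceflight replicate 1 and highest in ground-control replicate 3, the arrays with the lowest and the highest average of the 8 collagens of highest signal. Single markers varied, since 7 of 10 fibroblast, 5 of 8 mural and 5 of 8 endothelial markers were lowest in the first of these arrays, and 7, 4 and 8 were highest in the other. The pattern is not particular to these lists. All 6 partner lists and the cartilage, fat cell, skeletal muscle and airway lists had the same lowest and highest array. The thymocyte, thymic epithelial and bone lists did not. Genes above the median signal had a median deviation of -0.16 in spaceflight replicate 1 and 0.11 in ground-control replicate 3. The 10 fibroblast markers had a list mean of 6.95 in spaceflight replicate 1 and 8.20 in ground-control replicate 3. Their summed signal on the linear scale ran from 2132 to 5399 in spaceflight thymi and from 3979 to 6216 in ground-control thymi, and their median difference was -0.12. The 8 mural and smooth muscle markers had list means of 6.56 to 7.45 in spaceflight thymi and 7.25 to 7.75 in ground-control thymi, with summed signals of 891 to 1926 and of 1688 to 2852. For the 8 endothelial markers the summed signal was 966 to 1278 in spaceflight thymi and 1034 to 1796 in ground-control thymi. Thymic epithelial markers, of which 9 of 10 were measured, had a median difference of -0.47, with 5 lower at an unadjusted p under 0.05, beside 7% of all genes and 11.8% of those above the median signal, where 8 of the 9 lie. Their list mean was lowest in spaceflight replicate 3 and highest in ground-control replicate 4. Without spaceflight replicates 1 and 3 the median difference was 0.07 for fibroblast, -0.02 for mural, 0.05 for endothelial and -0.15 for thymic epithelial markers. The part of these cells in the collagen values was not tested.

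Marker transcripts of airway, skeletal muscle, cartilage and bone also differed between arrays, and their source was not tested. The airway list of 8 genes had a mean of 5.53 in spaceflight replicate 1, the lowest array, and 9.71 in ground-control replicate 3, the highest. Within it, the club cell transcript Scgb1a1 was 3.78 in spaceflight replicate 1 and 10.65 to 12.56 on the other 7 arrays. The 8 skeletal muscle markers had a median difference of -0.46 and list means of 5.86 to 7.90 in spaceflight thymi and 7.18 to 8.02 in ground-control thymi. Cartilage markers, 9 of 9 measured, had a median of 0.03 with list means of 5.23 to 5.60 in spaceflight thymi and 5.40 to 5.68 in ground-control thymi. For bone, 5 of 6 markers were measured, with list means of 4.76 to 4.90 in spaceflight thymi and 4.75 to 4.85 in ground-control thymi. Without spaceflight replicates 1 and 3 the median difference was -0.33 for skeletal muscle and 0.07 for cartilage markers. The part of such tissue in the collagen values was not tested.

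**Figure D5:**
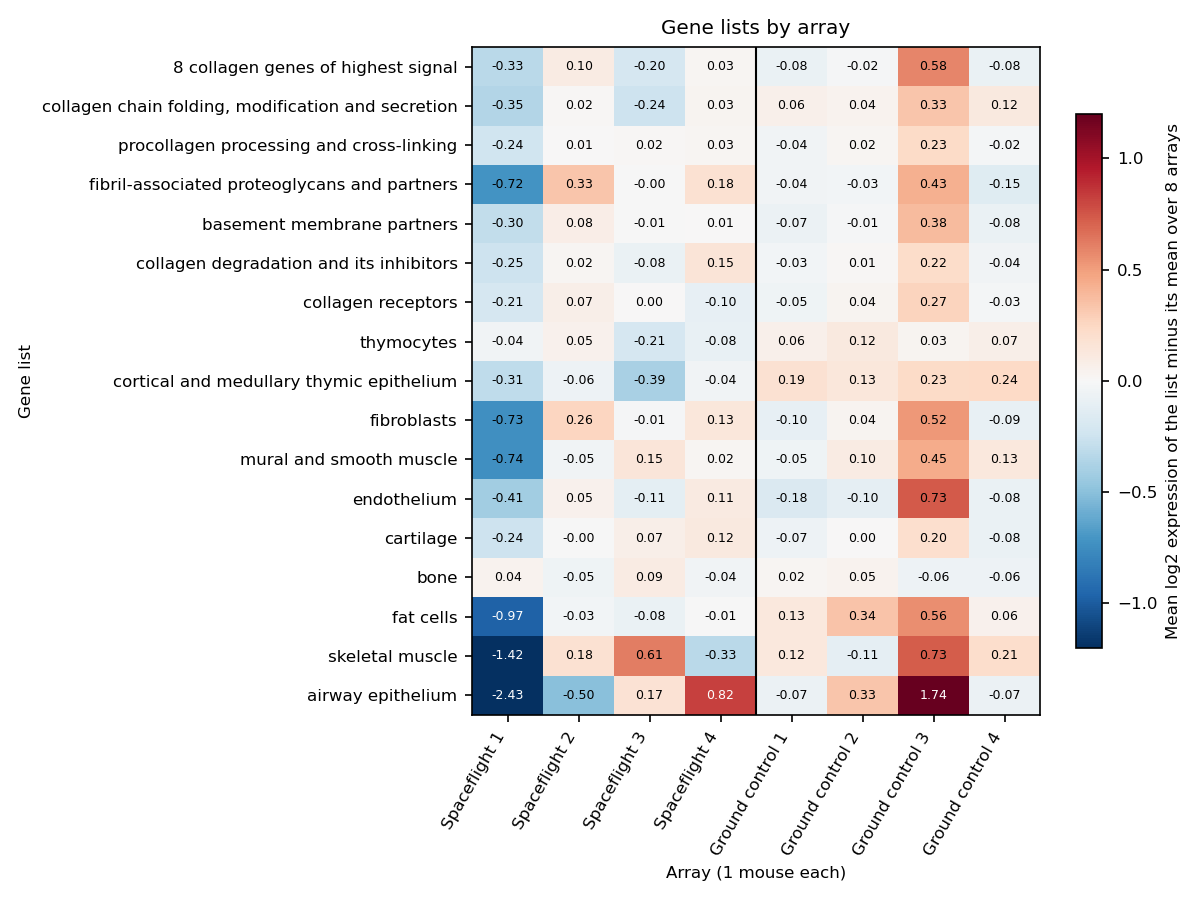
Each cell gives, for 1 gene list (rows) on 1 array (columns, spaceflight left), the mean log2 expression of the list minus its mean over 8 arrays. The top row holds the 8 collagens of highest signal, which are at -0.33 in spaceflight replicate 1 and at 0.58 in ground-control replicate 3.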

How the data were processed

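RNA of the thymus lobes of 8 mice was extracted with Trizol, labelled with biotin and hybridised to 1 array per mouse, per the labels' protocols. The authors deposited expression on the log2 scale, made with RMA, which corrects background, normalizes by quantiles and summarises each probe set, per the submitters' processing notes, which also name limma. Tool versions, genome build and filters are not given in the sources used here. No further normalization was applied, with no detection p and no depth, and the number of arrays limits the precision.

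Of 35557 probe sets, the lowest unbroken run of 6614 identifiers, which has no gene in the annotation, was left out. The other 28943 were tested with limma 3.58.1 under R 4.3.3 (linear fit, moderated by eBayes, two-sided, without a block, threshold 0.05 after Benjamini-Hochberg adjustment). Every p of a gene comes from this fit, except where arrays left out or another alternative are named beside it. The code was tested on simulated data. Genes were named from the 21789 probe sets with 1 gene, of which 21698 matched RefSeq, and 1621 with several genes and 5533 with none were not named. Each mouse was 1 replicate.

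Members, classes and gene lists were chosen with earlier results of these data known, so lists are given by counts and medians without a test. Full values are given for collagens at an adjusted or unadjusted p under 0.05 and for the 4 of highest mean signal in each class, 12 in all, and for each partner list the 3 genes of smallest p are named. Replicate numbers were not used to pair the mice in the main fit. Deviations from the group means of same-numbered arrays correlated at 0.25, -0.40, -0.29 and 0.10, inside the range of -0.54 to 0.48 for arrays of unlike number. Such values cannot show whether mice of the same number were handled together. Alternatives changed the centring, weights, variance prior, block, arrays, filter and probe set of a gene.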

Additional observations from a re-analysis of the deposited data

Results flagged for a closer look

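Of the 88 groups of 4 values formed by 44 collagens in 2 groups, 6 held an array whose gap to its nearest neighbour took up most of the range of the group (Dixon's test at the 95% level). Chance flags about 5% of groups, and arrays of 1 mouse are shared by all genes. Col6a2 was 6.56 in spaceflight replicate 3, with the other spaceflight arrays at 6.96 to 6.998. Col5a2 was 5.60 in spaceflight replicate 1, with the other spaceflight arrays at 5.76 to 5.80. Col1a1 was 8.92 in ground-control replicate 3, with the other ground-control arrays at 7.89 to 8.05. Col3a1 was 8.47 in the same array, with the others at 7.57 to 7.67. Col8a2 was 6.02 in ground-control replicate 2, with the other ground-control arrays at 5.54 to 5.61. Col9a2 was 6.83 in that array, with the others at 6.49 to 6.50.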

How the results depend on the processing

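The number of collagens at an adjusted p under 0.05 was 0 in every fit run, the replicate block included, where the smallest adjusted p was 0.585. Over all fits the smallest adjusted p of any collagen lay between 0.249 and 0.858. The replicate block left each difference as it was, since all 4 numbers occur in both groups. With 1 array left out at a time, the count stayed between 0 and 0, and the median difference ran from 0.02 to 0.10 over all collagens, from -0.0092 to 0.08 over fibrillar, from -0.06 to 0.03 over basement membrane and from 0.04 to 0.13 over the other collagens. With spaceflight replicates 1 and 3 left out, the medians were -0.0466 over all collagens, -0.13 over basement membrane and -0.0341 over the other collagens. With ground-control replicate 3 left out as well, an alternative chosen after seeing the data, they were -0.0393 over all and -0.0526 over the other collagens. The fibrillar median was 0.11 with arrays centred on the 75th percentile and 0.10 relative to genes of the same decile of signal, the other alternative chosen after seeing the data. The basement membrane median was -0.24 over genes above the median signal.

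The sign changed under some alternatives for 8 of the 12 collagens given in full, among them Col3a1, which had the largest difference of all. With arrays centred on the 75th percentile, Col14a1 was 0.0684, Col18a1 0.0766 and Col1a2 0.0448. After a further quantile normalization, Col14a1 was 0.0509, Col18a1 0.0634 and Col1a2 0.0499. With array weights, Col14a1 was 0.12, Col18a1 0.0286 and Col1a2 0.14. Relative to the decile of signal, Col14a1 was 0.13, Col18a1 0.0727 and Col1a2 0.10. Without spaceflight replicates 1 and 3, Col14a1 was 0.22, Col1a2 0.21, Col6a1 0.0145, Col2a1 -0.0149 and Col9a2 -0.15. Without ground-control replicate 3 as well, Col14a1 was 0.39, Col1a2 0.45, Col1a1 0.19, Col3a1 0.11, Col6a1 0.0766, Col2a1 -0.0071 and Col9a2 -0.18. With 1 array left out at a time, the difference ran from -0.14 to 0.17 for Col14a1, from -0.10 to 0.0583 for Col18a1, from -0.29 to 0.0590 for Col1a1 and from -0.19 to 0.21 for Col1a2. Centring shifts every gene by the same amount, and the decile values take off the median of the decile. Sign changes under those alternatives follow from the calculation. The cause of the other changes was not tested. The arrays carry no detection p, so how far a dim probe set lies above background is unknown.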
